A study of Caenorhabditis elegans with 6 samples.

Results

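The lysosome and autophagy genes of *Caenorhabditis elegans* were described here as the genes whose symbols start with *vha*, *asp*, *cpr*, *cpl*, *cpz*, *lmp*, *atg*, *lgg* or *epg*, followed by a number. They were picked by name, from classes chosen with earlier results of these data known. They number 72 of the 19933 genes in the expression table. The set holds 20 genes of the vacuolar proton pump, 17 aspartyl protease genes, 10 cysteine protease genes, 2 genes for lysosome membrane proteins and 23 autophagy genes. RNA was sequenced from embryos laid by wild-type N2 hermaphrodites that had been fed bacteria carrying an empty vector (EV RNAi, 3 libraries) or a double-stranded RNA against *pri-1* (*pri-1* RNAi, 3 libraries). *pri-1* encodes a subunit of DNA primase, which lays down the RNA primers of DNA replication. In both groups, feeding began with synchronized larvae of the first larval stage and lasted 96 h at 20°C, the adults and hatched worms were washed off, and the laid eggs were scraped from the plates. All 6 libraries were therefore whole embryos of the F1 generation, without a mutation or a transgene. Nothing in the labels says whether the 3 libraries of a group came from separate cultures. A figure legend of the paper counts the replicates behind its CPM graphs as experiments, without describing the cultures. Every p-value here measures the spread between these libraries, and how much of that spread is technical was not tested.

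The lysosome is the acidic compartment in which cells break down protein, lipid and nucleic acid. The vacuolar ATPase, built from a soluble V1 part that burns ATP and a membrane-bound V0 part that carries protons, acidifies it, and aspartyl and cysteine proteases of the cathepsin families then work at low pH. Autophagy delivers cytoplasm to the lysosome: a membrane grows around the cargo, carries ubiquitin-like proteins of the Atg8 family on its surface, closes and fuses. In worm embryos autophagy is known for removing paternal mitochondria and maternal protein granules, and the intestine, the excretory cell and the epidermis are known for their own proton pump isoforms.

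Levels are given in CPM, that is, reads of a gene per 1000000 reads of its library. Differences are log2 fold changes, *pri-1* RNAi minus EV RNAi, on the scale of log2(CPM + 0.5), so that the change of genes near that pseudocount is understated. A gene was tested if it reached 0.5 CPM in at least 3 libraries, which left 14801 genes and 67 of the 72 lysosome and autophagy genes. It was called higher or lower if its adjusted p from limma, with the Benjamini-Hochberg method over all 14801 genes, was below 0.05. Depth did not limit these genes much, since the libraries held between 122751282 and 162069406 reads as recovered from the smallest steps of the values, and 3 reads amounted to between 0.0185 and 0.0244 CPM. Of all genes tested, 17.3% were called higher, 9.94% lower and 27.3% in either direction. For 25.4% of all genes the 3 *pri-1* RNAi libraries lay above all 3 EV RNAi libraries, for 19.8% they lay below, and together these made up 45.2%. The principal component that carried 62.2% of the variance separated the groups, and the component that followed, with 30.1%, separated EV replicate 2 from EV replicate 3. The level of *pri-1* itself was 41.2, 47.2 and 26.9 CPM in the 3 EV libraries, in order of replicate number as throughout, and 28.6, 28.7 and 24.3 CPM in those of *pri-1* RNAi. The groups overlapped, and the difference of -0.46 ± 0.29 (SE) was not called (adjusted p = 0.285), so the level of the targeted gene does not by itself check the labels.

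Among the 67 lysosome and autophagy genes tested, 7 were called higher (10.4%, against 17.3% of all genes) and 11 lower (16.4%, against 9.94%). The 49 others were not called, and 31 of the 67 had an unadjusted p under 0.05. The genes called higher were *cpr-3*, *asp-17*, *asp-4*, *vha-18*, *cpr-2*, *atg-18* and *asp-12*. Those called lower were the proton pump genes *vha-3*, *vha-4*, *vha-5*, *vha-10*, *vha-11* and *vha-14*, the protease genes *asp-2*, *asp-3*, *asp-13* and *cpr-5*, and the autophagy gene *atg-5*. The median log2 fold change of the 67 genes was -0.21, beside -0.01 over all genes tested. It differed between the groups of genes, with -0.57 for the proton pump, -0.71 for the aspartyl proteases, 0.63 for the cysteine proteases and 0.13 for autophagy. Centring each library on the median of its genes moved the median of all genes to 0.20, and the proton pump median stayed between -0.98 and -0.31 relative to that of all genes over all 19 fits made.

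**Figure D1:**
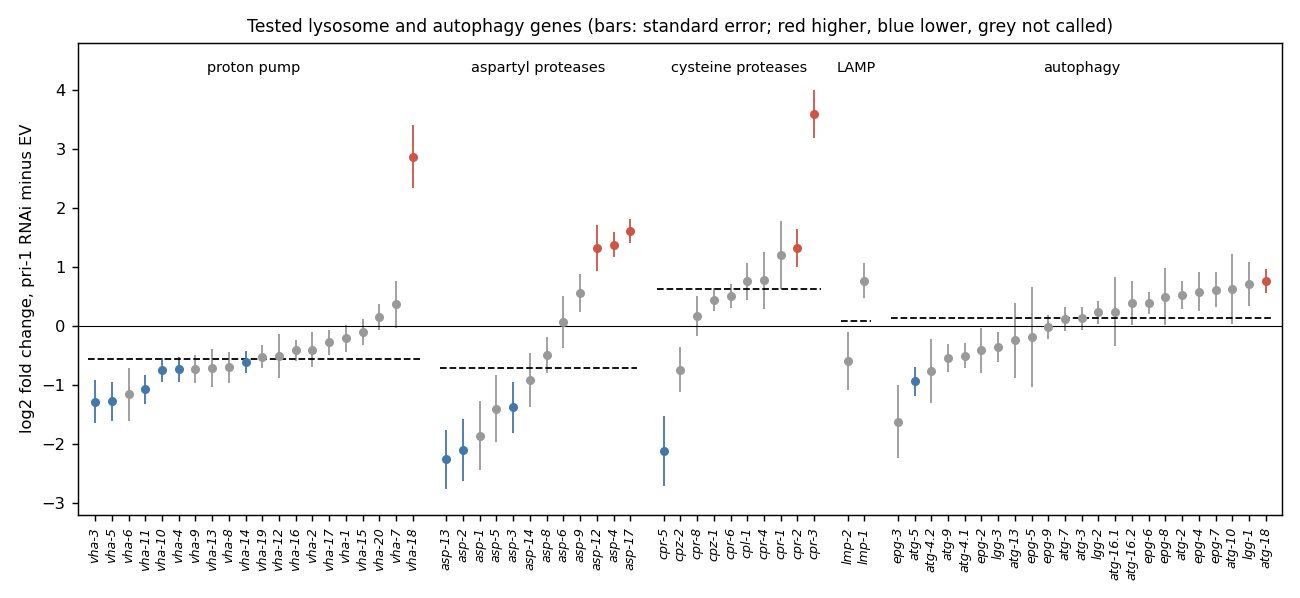
Log2 fold change (vertical axis, *pri-1* RNAi minus EV RNAi on the scale of log2(CPM + 0.5)) of the 67 genes tested, grouped by function and ordered by value. Points are estimates, bars are standard errors, dashed lines are group medians, red and blue mark the 7 genes called higher and the 11 called lower, and 17 of the 20 proton pump genes lie below 0.

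These calls depended on which libraries were compared. With EV replicate 1, *pri-1* RNAi replicate 1 or *pri-1* RNAi replicate 3 left out, limma called 0 members lower. At an unadjusted p under 0.05, 14, 11 and 12 members were lower, a share not counted over all genes, and no other tool was run on these subsets. Over all genes, the share called lower was 2.5%, 1.31% and 0.189% in the same fits, so fewer calls were made over the whole table as well. Leaving out EV replicate 2 gave 18 members lower (9.23% of all genes), leaving out EV replicate 3 gave 10 (20.0%), and leaving out *pri-1* RNAi replicate 2 gave 9 (6.45%). Of the 11 genes called lower, *vha-4*, *vha-10*, *vha-14*, *asp-3* and *cpr-5* were not called without EV replicate 3, *vha-3*, *vha-4*, *vha-14* and *atg-5* were not called without *pri-1* RNAi replicate 2, and *atg-5* was not called without EV replicate 2. Members called higher numbered 6, 7 and 8 without EV replicates 1, 2 and 3 (11.8%, 19.6% and 17% of all genes) and 2, 4 and 1 without *pri-1* RNAi replicates 1, 2 and 3 (4.52%, 8.33% and 2.14%). On the recovered reads, edgeR called 6 members higher and 9 lower (20.2% and 15.5% of its 17784 genes), and DESeq2 called 6 and 14 (23.9% and 19.2%). In both tools *asp-16* was among the 6, although it passed their read filter only through the *pri-1* RNAi libraries. Other scalings gave 5 higher and 9 lower with trimmed-mean scaling (18.5% and 14.6% of all genes), 6 and 16 with quantile normalization (16.7% and 17.2%), and 5 and 2 with median centring (21.7% and 8.55%). *cpr-3* was called in every one of these fits. No called member changed its direction in any of them.

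Marker genes of several tissues also differed between the groups, and their part in the results below was not tested. All 6 excretory cell markers lay below 0, with a summed level of 213.7 to 326.0 CPM in the EV RNAi libraries and 133.2 to 149.5 CPM in the *pri-1* RNAi libraries, and 1 of them was called lower. The 3 coelomocyte markers (scavenger cells of the body cavity) summed to 30.5 to 53.98 CPM against 13.6 to 18.4 CPM, with 2 called lower. Intestine markers overlapped between the groups, at 936.4 to 1525 CPM against 695.1 to 1363 CPM for the 9 markers in the table, of which 1 was called higher and 1 lower. The 5 body wall muscle markers also overlapped, at 3026 to 6037 CPM against 2125 to 4520 CPM, and 0 were called by limma, with 1 under an unadjusted p of 0.05. All 8 early embryo markers lay above 0, at 257.4 to 383.6 CPM against 578.6 to 785.2 CPM, with 3 called higher. The 8 genes of adults and late larvae summed to 521.5 CPM in EV replicate 1 and 11.8 to 71.4 CPM in the other libraries, and the yolk genes *vit-2*, *vit-5* and *vit-6* gave 512.0 CPM of the sum in EV replicate 1, while *rol-6* was called higher (1.36, adjusted p = 0.00696). Of 6 sperm markers, which summed to 0.496 to 1.71 CPM against 2.62 to 5.19 CPM, 2 (*spe-9* and *fog-3*) were tested and both called higher, and the other 4 stayed at or below 0.319 CPM. Of these called markers, *end-3* (the intestine marker called higher), *rol-6* and *fog-3* passed the filter on low values only through the *pri-1* RNAi libraries, so their calls carry no weight. The shares called lower were 16.7% (excretory cell), 66.7% (coelomocyte) and 11.1% (intestine), against 9.94% of all genes. The share called higher was 37.5% (early embryo), against 17.3% of all genes. Shares of 11.1% (intestine) and 14.3% (adults and late larvae) rest on *end-3* and *rol-6* alone, and 100% (sperm) includes *fog-3*, so these shares carry no weight. The early embryo marker *tbx-37*, counted in the 37.5%, and *spe-9* also needed *pri-1* RNAi libraries to pass, with EV libraries down to 0.183 and 0.241 CPM. Per the paper, eggs laid after *pri-1* RNAi do not hatch and stop developing early, before the embryo takes its shape. Embryo stage therefore goes together with the RNAi in these libraries, and its part was not tested. Since each library pools whole embryos, embryo stage, fewer cells of a type and less RNA per cell cannot be told apart.

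In the proton pump, 6 of 20 genes were called lower with *pri-1* RNAi in the limma fit, and 17 of 20 had a log2 fold change below 0. The 20 genes summed to 8176, 6500 and 9084 CPM in EV replicates 1, 2 and 3 and to 4432, 6408 and 5416 CPM in *pri-1* RNAi replicates 1, 2 and 3. The 2 groups of sums did not overlap, although EV replicate 2 and *pri-1* RNAi replicate 2 nearly met, and the means were 7920 ± 1311 (SD, n = 3) and 5418 ± 987.8 CPM (SD, n = 3). The 6 called lower made up 30% of the pump genes, against 9.94% of all genes, and 1 gene was called higher. This excess was not found in every fit: edgeR, DESeq2 and trimmed-mean scaling each called 3 pump genes lower (15%, against 15.5%, 19.2% and 14.6% of all genes) and median centring called 1 (5%, against 8.55%). Quantile normalization called 10 (50%, against 17.2%), and none was called by limma without EV replicate 1 or without replicate 1 or 3 of *pri-1* RNAi. In 10 genes (50.0%, against 19.8% of all genes) every *pri-1* RNAi library lay below every EV RNAi library.

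**Figure D2:**
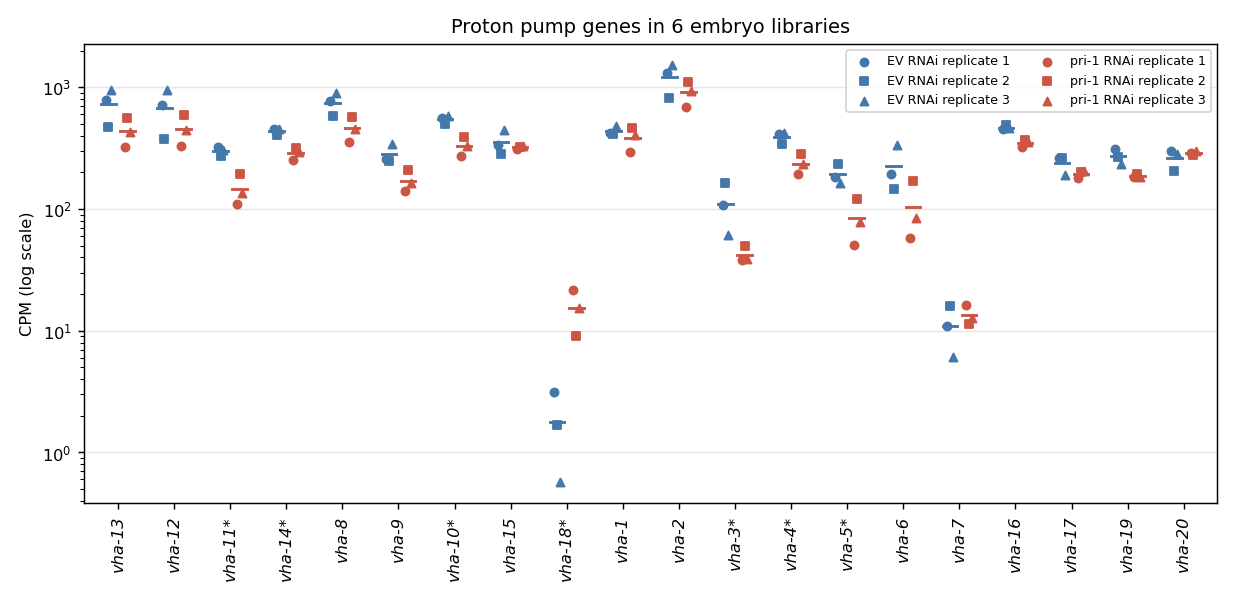
CPM (vertical axis, log scale) of the 20 proton pump genes in each of the 6 libraries, ordered from V1 to V0 and accessory subunits, with a bar at each group mean and an asterisk at each called gene. *vha-18* is the gene called higher, at up to 3.13 CPM with EV RNAi and at least 9.07 CPM with *pri-1* RNAi, and 10 genes have their 3 *pri-1* RNAi libraries below the EV RNAi libraries.

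In the V1 part, 8 of 9 genes had a log2 fold change below 0 and the median was -0.71. *vha-11* encodes subunit C, which links the V1 stator to V0, and it lies on chromosome IV at 2307815 to 2314567 of WBcel235. Its level was 323.9, 274.9 and 302.9 CPM in the EV replicates and 109.5, 192.8 and 135.7 CPM in those of *pri-1* RNAi. The groups were clearly apart, and the gene fell by 1.07 ± 0.25 (SE) on the log2 scale (adjusted p = 0.0168). *vha-10*, the stator subunit G, had 559.2, 501.8 and 582.0 CPM against 272.6, 388.2 and 326.5 CPM, a difference of -0.75 ± 0.21 (adjusted p = 0.0322). *vha-14*, subunit D of the rotating shaft, had 458.4, 407.6 and 455.3 CPM against 254.5, 318.7 and 295.9 CPM, a difference of -0.61 ± 0.19 (adjusted p = 0.0473). The *vha-11* call was kept by edgeR and DESeq2 and lost with median centring (adjusted p = 0.160). The *vha-10* and *vha-14* calls were lost in 10 and 12 of 18 alternatives, among them edgeR (adjusted p = 0.1 and 0.12), DESeq2 (0.0620 and 0.0931) and trimmed-mean scaling (0.133 and 0.17). In these genes *pri-1* RNAi replicate 1 was the lowest library and replicate 2 the highest of its group.

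The remaining V1 genes show how near the threshold this group lay. *vha-9* (subunit F, -0.73, adjusted p = 0.0545) and *vha-8* (subunit E, -0.71, adjusted p = 0.0824) did not overlap between the groups and were not called. *vha-13* and *vha-12* encode the subunits A and B that form the ATP-hydrolysing head. *vha-13* had 779.1, 469.8 and 940.9 CPM with EV RNAi and 321.4, 561.7 and 426.8 CPM with *pri-1* RNAi. *vha-12* had 713.0, 374.9 and 943.6 CPM against 331.3, 588.1 and 446.3 CPM. Both overlapped because EV replicate 2 was low and *pri-1* RNAi replicate 2 was high, and neither was called (-0.72, adjusted p = 0.140, and -0.51, adjusted p = 0.352). Quantile normalization called *vha-9* (adjusted p = 0.0372), *vha-8* (0.0207) and *vha-13* (0.041) lower, but not *vha-12* (0.165), and limma without EV replicate 2 called all of them lower. Neither edgeR nor DESeq2 called any of them.

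Subunit H, which regulates the coupling of V1 and V0, is encoded by *vha-15* and *vha-18*, of which *vha-18* was called. *vha-18* (chromosome V, 8411775 to 8413482, minus strand) had 3.13, 1.69 and 0.568 CPM in the EV replicates and 21.4, 9.07 and 15.3 CPM in those of *pri-1* RNAi. It rose by 2.87 ± 0.54 (SE) on the log2 scale (adjusted p = 0.00752). The call was lost without *pri-1* RNAi replicate 1 (adjusted p = 0.0578) or replicate 3 (adjusted p = 0.0723). *vha-15* stayed the main H gene, at 281.5 to 448.5 CPM with EV RNAi and 312.0 to 331.4 CPM with *pri-1* RNAi (-0.11, adjusted p = 0.752). Of the reads of both genes, *vha-18* took 0.931%, 0.598% and 0.126% in the EV replicates and 6.42%, 2.74% and 4.42% in the *pri-1* RNAi replicates. *vha-15* thus kept at least 93.6% of these reads in every library.

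In the V0 part, the proteolipid ring that rotates in the membrane is encoded by *vha-1*, *vha-2* and *vha-3* (subunit c) and *vha-4* (subunit c″), and all 4 genes had log2 fold changes below 0 (median -0.57). *vha-4* had 413.5, 343.6 and 418.6 CPM in the EV replicates and 192.5, 282.1 and 234.6 CPM in those of *pri-1* RNAi. Its groups did not overlap, and the difference was -0.74 ± 0.22 (SE; adjusted p = 0.0390), a call lost in 11 of 18 alternatives, among them edgeR (adjusted p = 0.0972) and DESeq2 (0.0699). *vha-3* had 106.9, 163.9 and 61.6 CPM against 38.2, 49.5 and 38.5 CPM, the lowest log2 fold change among the proton pump genes (-1.29 ± 0.36, adjusted p = 0.0344). *vha-2*, the most abundant pump gene with 1321, 821.0 and 1528 CPM against 692.8, 1108 and 923.5 CPM, overlapped between the groups and was not called (-0.41, adjusted p = 0.352). *vha-2* and *vha-3* encode near-identical proteins, but whether reads were split between them was not tested. Recovered reads were whole in 5 of 6 libraries for *vha-2* and in 6 of 6 for *vha-3*. *vha-1* was not called either (-0.21, adjusted p = 0.531).

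Close neighbours among these genes kept no fixed ratio among the EV libraries. *vha-1* and *vha-2* lie 400 bases apart on the same strand of chromosome III, and the level of *vha-1* was 0.318 to 0.501 times that of *vha-2* in the EV libraries and 0.415 to 0.439 times in the *pri-1* RNAi libraries. *vha-11* and *vha-3* lie 892 bases apart on the same strand of chromosome IV. The level of *vha-11* was 3.03, 1.68 and 4.92 times that of *vha-3* in the EV replicates and 2.87, 3.89 and 3.53 times in the *pri-1* RNAi replicates. The ratio overlapped between the groups for both pairs, and it spread most among the EV libraries.

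The a subunits of V0, which hold the proton channel, differ by tissue in the worm: *vha-5* is known from the epidermis and excretory cell, *vha-6* from the apical membrane of the intestine and *unc-32* from neurons. *vha-5* had 184.2, 232.1 and 165.1 CPM in the EV replicates and 50.96, 121.8 and 78.8 CPM in those of *pri-1* RNAi. The groups did not overlap, and *vha-5* fell by 1.28 ± 0.33 (SE) on the log2 scale (adjusted p = 0.0264). *vha-6* had 192.5, 146.7 and 333.9 CPM against 57.8, 168.8 and 85.0 CPM. Here *pri-1* RNAi replicate 2 lay above EV replicate 2, and the difference of -1.17 ± 0.45 was not called (adjusted p = 0.0933). *unc-32* had 234.6, 254.8 and 146.7 CPM against 200.9, 164.8 and 174.5 CPM, with a difference of -0.20 that was not called and was 0.01 with median centring. *vha-7* was the lowest a subunit gene at 6.14 to 16.15 CPM over all libraries (0.36, adjusted p = 0.555). As a share of the reads of all 4 a subunit genes, *unc-32* made up 37.7%, 39.2% and 22.5% in the EV replicates and 61.7%, 35.3% and 49.7% in the *pri-1* RNAi replicates, which overlap.

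None of the other V0 and accessory genes was called by limma on all 6 libraries without further scaling. *vha-16* (subunit d) and *vha-19* (an accessory subunit related to Ac45) did not overlap between the groups (-0.41, adjusted p = 0.122, and -0.53, adjusted p = 0.0811), and quantile normalization called *vha-19* lower (adjusted p = 0.0409). *vha-17* (subunit e) stood at -0.28 and *vha-20*, related to the prorenin receptor ATP6AP2, at 0.15. *vha-20* was below 0 with edgeR (-0.13) and DESeq2 (-0.10) and without EV replicate 2 (-0.03).

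Among the aspartyl proteases the abundant family members moved in opposite directions. *asp-4*, related to cathepsin D, had 309.0, 317.2 and 269.4 CPM in the EV replicates and 832.7, 638.2 and 872.6 CPM in those of *pri-1* RNAi. It rose by 1.38 ± 0.21 (SE) on the log2 scale (adjusted p = 0.00309), and the call was lost only without *pri-1* RNAi replicate 3 (adjusted p = 0.0588). *asp-2* had 144.0, 94.5 and 215.2 CPM against 18.6, 73.4 and 25.6 CPM and fell by 2.11 ± 0.53 (adjusted p = 0.0228). The lowest log2 fold change of the 67 genes was that of *asp-13*, at 31.5, 15.5 and 8.96 CPM against 2.86, 4.18 and 2.29 CPM (-2.26 ± 0.50, adjusted p = 0.0142). *asp-3*, also related to cathepsin D, had 412.0, 241.0 and 515.5 CPM against 89.9, 253.0 and 125.4 CPM. It was called lower (-1.39 ± 0.43, adjusted p = 0.0478) although *pri-1* RNAi replicate 2 lay above EV replicate 2, and the call was lost in 11 of 18 alternatives, edgeR among them (adjusted p = 0.0751).

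*asp-1*, known from the intestine, was the most abundant aspartyl protease gene with EV RNAi, at 1130, 592.8 and 1923 CPM, against 175.3, 684.8 and 221.5 CPM with *pri-1* RNAi. Its difference of -1.86 ± 0.59 (SE) just missed the threshold (adjusted p = 0.0507), since EV replicate 2 lay below *pri-1* RNAi replicate 2, and it was called lower in 5 of 18 alternatives, among them the fits that dropped replicate 2 of either group. Together with *asp-4*, this gene changed the make-up of the family. *asp-1* supplied 42.2%, 36.8% and 50.4% of the summed CPM of the 17 genes in the EV replicates and 12.7%, 27.9% and 12.9% in the *pri-1* RNAi replicates. *asp-4* supplied 11.5%, 19.7% and 7.06% against 60.1%, 26% and 50.7%. Neither share overlapped between the groups (the shares were not tested, since with 3 libraries a group no exact permutation p can be below 0.1). The family's sum itself, 2676, 1612 and 3818 CPM against 1386, 2459 and 1720 CPM, overlapped.

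**Figure D3:**
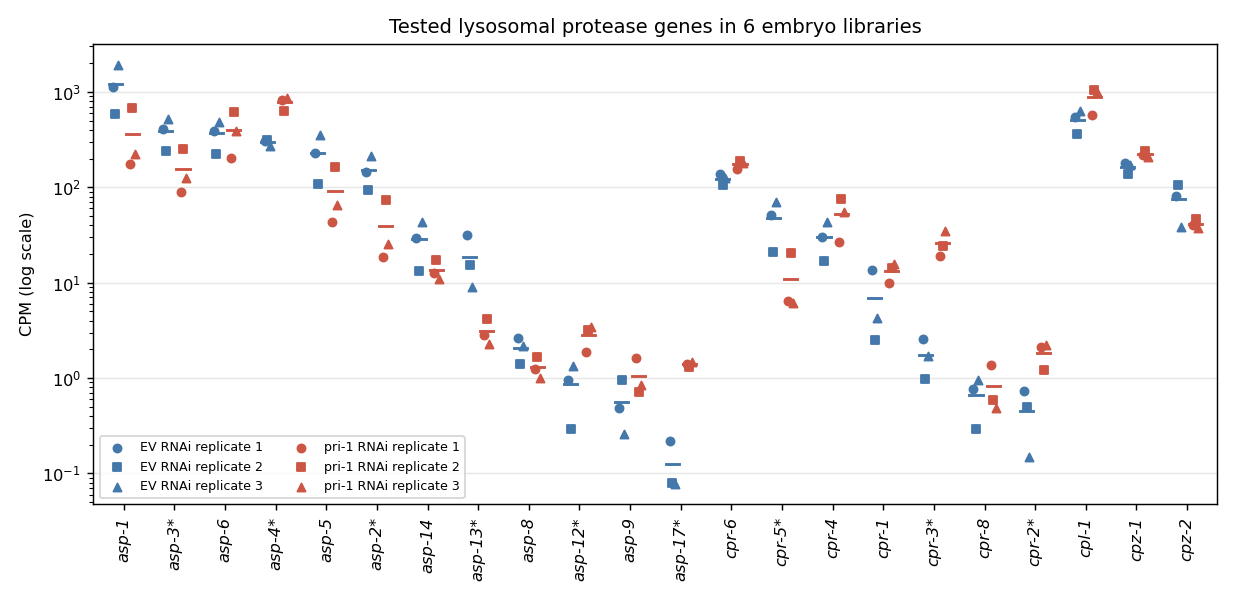
CPM (vertical axis, log scale) of the 12 aspartyl and 10 cysteine protease genes tested, in each of the 6 libraries, ordered within a family by the EV mean, with a bar at each group mean and an asterisk at each called gene. *asp-4* and *cpr-3* lie higher in all 3 *pri-1* RNAi libraries, and *asp-2*, *asp-13* and *cpr-5* lie lower.

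The other aspartyl protease genes lay mostly at low levels. *asp-17* had 0.220, 0.0784 and 0.0783 CPM in the EV replicates and 1.41, 1.30 and 1.49 CPM in those of *pri-1* RNAi, and was called higher (1.61 ± 0.20, adjusted p = 0.00150). It passed the filter on low values only through the *pri-1* RNAi libraries, where it was high, so its place among the 7 genes called higher carries no weight. It was the only one of the 67 genes without any EV library at 0.5 CPM. *cpr-2* and *asp-12*, also called higher, had EV libraries below 0.5 CPM (down to 0.150 and 0.290 CPM) and needed *pri-1* RNAi libraries to pass. *asp-12* had 0.953, 0.290 and 1.35 CPM against 1.86, 3.15 and 3.39 CPM (1.33 ± 0.39, adjusted p = 0.0399). This call held in 1 of the 6 fits that left out a library, the fit without EV replicate 3, and edgeR (adjusted p = 0.162) and DESeq2 (0.0987) did not make it. *asp-12* lies between *asp-6* and *asp-5* on chromosome V, 272 and 328 bases from them. *asp-6* (0.06, adjusted p = 0.934) and *asp-5* (-1.41, adjusted p = 0.108) were not called.

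The 5 genes not tested were all aspartyl protease genes. *asp-16* stood at 0.0163, 0 and 0.00652 CPM in the EV replicates, at most 2 reads, and at 0.457, 0.407 and 0.790 CPM in those of *pri-1* RNAi. edgeR and DESeq2 called it higher, but it passed their filter of more than 10 reads only through the *pri-1* RNAi libraries. These calls therefore carry no weight. *asp-16* is the neighbour of *asp-17*, 1707 bases away on the same strand of chromosome V, and *asp-15* and *asp-1* follow on that strand. *asp-7*, *asp-15*, *asp-18* and *asp-19* stayed at or below 0.433 CPM in every library. Of the 17 aspartyl protease genes 13 lie on chromosome V.

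Of the 10 cysteine protease genes, 8 had a log2 fold change above 0, 2 were called higher (20%, against 17.3% of all genes) and 1 was called lower (10%, against 9.94%), so the shares called were near those of all genes. *cpr-3*, a member of the cathepsin B family on chromosome V at 15296834 to 15298700 on the minus strand, gave the highest log2 fold change of all 67 genes. It had 2.55, 0.973 and 1.69 CPM in the EV replicates and 19.2, 24.3 and 34.5 CPM in those of *pri-1* RNAi. The lowest *pri-1* RNAi library was well above the highest EV RNAi library, and *cpr-3* rose by 3.59 ± 0.41 (SE) on the log2 scale (adjusted p = 0.00121). *cpr-2* rose from 0.725, 0.494 and 0.150 CPM to 2.11, 1.23 and 2.21 CPM (1.32 ± 0.32, adjusted p = 0.0203), and without replicate 1 or 3 of *pri-1* RNAi the estimates of 1.23 and 1.2 were not called (adjusted p = 0.116 and 0.153). *cpr-5*, at 51.7, 21.0 and 69.5 CPM against 6.36, 20.4 and 6.15 CPM, fell by 2.12 ± 0.59 (adjusted p = 0.0337), with EV replicate 2 and *pri-1* RNAi replicate 2 almost level. *cpr-3* thus passed *cpr-5*: its level was 0.0243 to 0.0493 times that of *cpr-5* in the EV libraries and 1.19 to 5.61 times in the *pri-1* RNAi libraries.

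The abundant cysteine protease genes differed less. *cpl-1*, the cathepsin L of the worm, known for processing yolk in embryos, had 545.1, 365.7 and 629.6 CPM in the EV replicates and 576.5, 1057 and 994.3 CPM in those of *pri-1* RNAi. The groups overlapped in *pri-1* RNAi replicate 1, and the difference of 0.76 ± 0.31 (SE) was not called (adjusted p = 0.115). *cpr-6* (0.51, adjusted p = 0.107) and the cathepsin Z gene *cpz-1* (0.44, adjusted p = 0.138) did not overlap between the groups, and were not called. The other cathepsin Z gene, *cpz-2*, stood at -0.75 (adjusted p = 0.192), and edgeR, DESeq2 and trimmed-mean scaling called it lower. Cysteine proteases made up 28.1%, 32% and 22.2% of the summed CPM of both protease families in the EV replicates and 43.2%, 40.4% and 47.2% in the *pri-1* RNAi replicates, with no overlap.

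The lysosome membrane protein gene *lmp-1*, related to the LAMP proteins that line the lysosome, had 331.3, 199.8 and 441.1 CPM in the EV replicates and 559.9, 467.2 and 547.6 CPM in those of *pri-1* RNAi. All 3 *pri-1* RNAi libraries lay above the EV libraries, but EV replicate 3 came close and the difference of 0.76 ± 0.30 (SE) was not called (adjusted p = 0.0996). *lmp-2* was expressed at 2.84 to 10.5 CPM over all libraries and was not called by limma (-0.60, adjusted p = 0.407), whereas DESeq2 (adjusted p = 0.0416) and limma without EV replicate 3 called it lower.

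Few autophagy genes were called. Of 23 genes, 13 lay above 0 and 10 below, 1 was called higher and 1 lower (4.3% each, against 17.3% and 9.94% of all genes), and the sums of 3971, 4869 and 2748 CPM in the EV replicates and 5262, 4161 and 4790 CPM in those of *pri-1* RNAi overlapped. *atg-18*, a WIPI-type protein that binds phosphoinositide on the growing membrane, had 276.7, 215.1 and 245.9 CPM against 429.5, 362.8 and 455.3 CPM. Its groups were well apart, and it rose by 0.76 ± 0.20 (SE) on the log2 scale (adjusted p = 0.0273). The call was kept without EV replicate 2 or 3, and lost without EV replicate 1 or any *pri-1* RNAi library. It was also lost with edgeR (adjusted p = 0.274), DESeq2 (0.229), trimmed-mean scaling (0.153) and median centring (0.111), so the only higher call among the autophagy genes depended on the tool and the scaling. *epg-6*, its relative, did not overlap either (0.39) but was not called (adjusted p = 0.171).

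**Figure D4:**
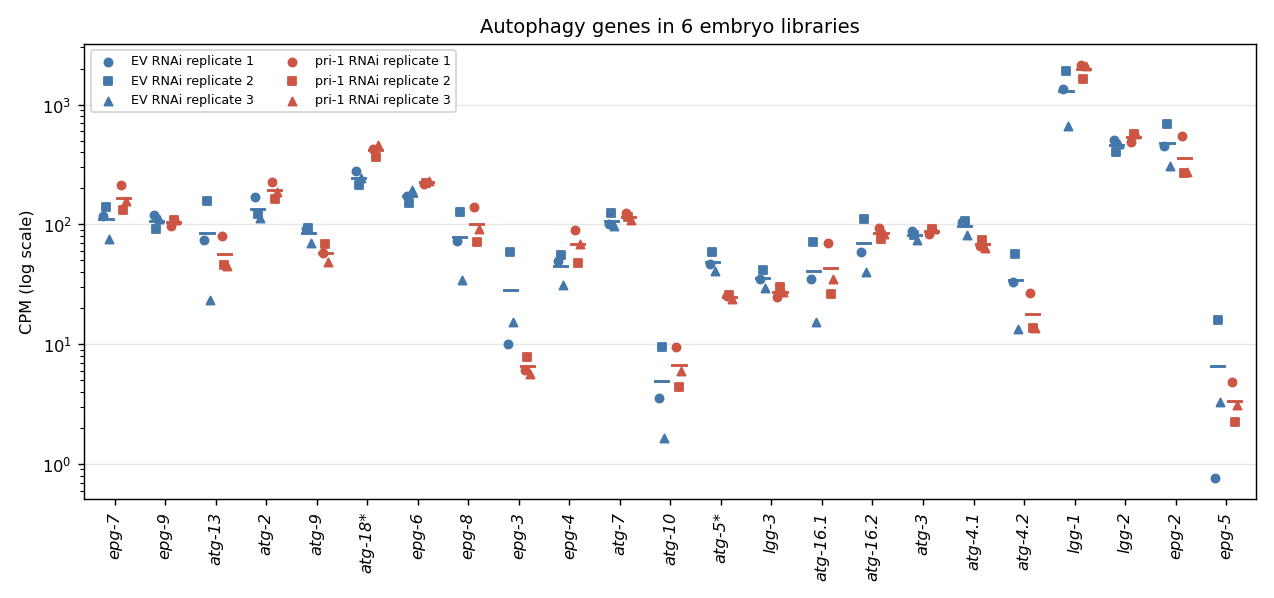
CPM (vertical axis, log scale) of the 23 autophagy genes in each of the 6 libraries, ordered from induction and membrane supply to conjugation, cargo and fusion, with a bar at each group mean and an asterisk at each called gene. *atg-18* lies higher and *atg-5* lower in all 3 *pri-1* RNAi libraries, and EV replicates 2 and 3 (square and triangle) are far apart in many of the other genes.

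In the conjugation machinery that attaches Atg8 proteins to lipid, *atg-5* was the called gene. It encodes the partner of the ubiquitin-like LGG-3 and had 46.9, 58.3 and 40.9 CPM in the EV replicates against 25.0, 25.9 and 23.8 CPM in those of *pri-1* RNAi. It fell by 0.94 ± 0.24 (SE) on the log2 scale (adjusted p = 0.0263), and the call was kept in 1 of the 6 fits that left out a library, the fit without EV replicate 3. Around it, *lgg-3* (-0.36, adjusted p = 0.339), the activating enzyme gene *atg-7* (0.11), the conjugating enzyme genes *atg-3* (0.13) and *atg-10* (0.63), and *atg-16.1* and *atg-16.2* (0.24 and 0.39) were not called. The cysteine protease genes *atg-4.1* and *atg-4.2*, which trim and release Atg8 proteins, stood at -0.51 (no overlap, adjusted p = 0.119) and -0.77 (adjusted p = 0.337).

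The Atg8 proteins themselves are encoded by *lgg-1*, the GABARAP of the worm, and *lgg-2*, its LC3. *lgg-1* was the most abundant of the 72 genes per length in both groups, at 1843 CPM per kb of annotated exon with EV RNAi and 2774 CPM per kb with *pri-1* RNAi. Its level was 1354, 1895 and 664.3 CPM in the EV replicates and 2153, 1638 and 2102 CPM in those of *pri-1* RNAi. EV replicate 2 lay above *pri-1* RNAi replicate 2, and the difference of 0.71 ± 0.38 (SE) was not called (adjusted p = 0.212). *lgg-2*, at 509.5, 399.6 and 468.7 CPM against 484.6, 564.2 and 563.9 CPM, was not called either (0.23, adjusted p = 0.420). On the scale per length, *vha-2* (1269 CPM per kb), *asp-1* (1020) and *vha-1* (863.5) followed *lgg-1* in the EV libraries. In the *pri-1* RNAi libraries *vha-2* (942.2), *vha-1* (755.7) and *cpl-1* (736.1) followed it, and *asp-1* stood at 302.8.

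The *epg* genes were named for ectopic granules that stay in embryos when autophagy fails. *epg-2*, which links maternal PGL granules to the forming autophagosome, had 448.3, 688.3 and 305.7 CPM in the EV replicates and 542.3, 270.6 and 271.3 CPM in those of *pri-1* RNAi, with overlap (-0.41, adjusted p = 0.466). *epg-3*, related to the ER membrane protein VMP1, had 9.96, 58.9 and 15.4 CPM against 6.11, 7.77 and 5.68 CPM. No library overlapped, yet EV replicate 2 alone carried much of the difference of -1.62 ± 0.62 (SE), which was not called by limma (adjusted p = 0.0919) and was -0.89 in the fit nearest 0 of those that left out a library. edgeR (adjusted p = 0.0183), DESeq2 (0.000950), trimmed-mean scaling (0.0384) and quantile normalization (0.0467) called *epg-3* lower. *epg-7*, related to FIP200 of the kinase complex that starts autophagy, had 116.4, 139.1 and 75.6 CPM against 211.1, 131.0 and 157.8 CPM and was not called (0.61, adjusted p = 0.171). The lipid scramblase gene *atg-9* did not overlap between the groups (-0.55, adjusted p = 0.126). The lipid transfer gene *atg-2* (0.52), *epg-4* (0.58), *epg-8* (0.49), *atg-13* (-0.24), *epg-9* (-0.02) and the fusion tether gene *epg-5* (-0.19) overlapped and were not called.

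Proton pump and protease genes often ordered the libraries of a group alike, and autophagy genes mostly followed another order among the EV libraries. EV replicate 3 was the highest, replicate 1 the middle and replicate 2 the lowest EV library in 10 of 20 proton pump genes (50%) and 7 of 12 aspartyl protease genes (58.3%), against 11.4% of all genes tested. The same order was found in 4 of 10 cysteine protease genes (40%) and in 1 of 23 autophagy genes (4.35%). Among autophagy genes, EV replicate 2 was the highest EV library in 17 (73.9%, against 60.8% of all genes). In 15 of the 23, replicate 2 was highest and replicate 3 lowest, an order whose share over all genes was not counted. In the other group, *pri-1* RNAi replicate 2 was the highest library in 15 of 20 proton pump genes (75%), against 25.1% of all genes. It was also the highest in 8 of 12 aspartyl (66.7%) and 6 of 10 cysteine protease genes (60%). The summed intestine markers (1284, 936.4 and 1525 CPM against 695.1, 1363 and 1177 CPM) and the summed body wall muscle markers were also highest in EV replicate 3 and in *pri-1* RNAi replicate 2, through abundant structural genes such as *act-5* and *unc-54*, whereas the regulators *elt-2*, *elt-7* and *hlh-1* were, among the EV libraries, highest in replicate 2. The scaling factors of the trimmed-mean method ran from 0.695 in EV replicate 3 to 1.27 in EV replicate 2.

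**Figure D5:**
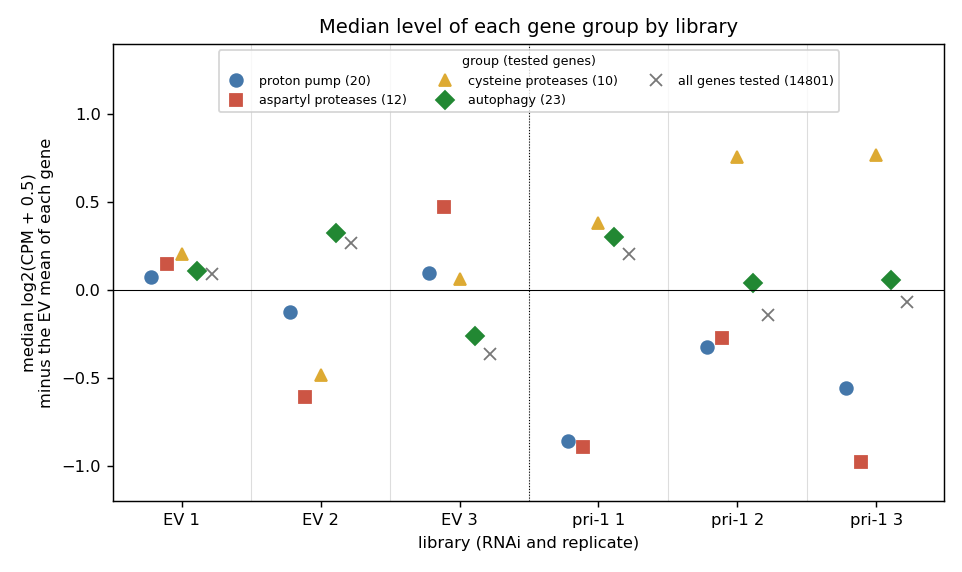
Median over the tested genes of a group (vertical axis) of log2(CPM + 0.5) minus the mean of that gene's 3 EV RNAi libraries, for each of the 6 libraries (horizontal axis). The proton pump medians lie between -0.12 and 0.10 in the EV libraries and between -0.86 and -0.33 in the *pri-1* RNAi libraries, whereas the cysteine protease medians lie between 0.38 and 0.77 in the latter.

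Other genes of the same pathways gave a mixed picture too. Of 87 listed genes, 86 were in the table and 82 were tested, 10 of which were called higher and 8 lower (12.2% and 9.76%, against 17.3% and 9.94% of all genes). edgeR and DESeq2 each called 18 of 86 lower (20.9%, against 15.5% and 19.2% of all genes). In autophagy, 4 of 14 genes were called higher (28.6%, against 17.3% of all genes) and 0 lower by limma. *pink-1*, a kinase of mitochondrial quality control, was lower at an unadjusted p of 0.0259, and edgeR and DESeq2 called it and its partner *pdr-1* lower, both named after their values were seen. *allo-1*, the adaptor that marks paternal mitochondria for removal, had 138.0, 147.0 and 108.0 CPM in the EV replicates and 670.3, 469.8 and 685.8 CPM in those of *pri-1* RNAi and rose by 2.20 ± 0.24 (SE; adjusted p = 0.000940). Its partner kinase gene *ikke-1* rose by 1.38 ± 0.26 (adjusted p = 0.00790). *sqst-1*, the p62 cargo receptor of the worm, had 680.3, 592.2 and 742.0 CPM against 1603, 1770 and 2035 CPM and rose by 1.42 ± 0.20 (adjusted p = 0.00259), though edgeR did not call it (adjusted p = 0.0738). *bec-1*, the Beclin of the lipid kinase complex, had 83.4, 115.1 and 35.3 CPM against 314.5, 192.2 and 259.3 CPM and rose by 1.84 ± 0.43 (adjusted p = 0.0181). *unc-51*, the kinase that starts autophagy (0.14, adjusted p = 0.765), and *sepa-1*, a cargo adaptor of P granules (0.12, adjusted p = 0.916), were not called.

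Among the regulators, 1 of 12 genes was called, a share of 8.33% higher against 17.3% of all genes. *aak-1*, a catalytic subunit of the energy sensor AMPK, had 6.27, 6.43 and 4.44 CPM in the EV replicates and 35.3, 22.6 and 32.4 CPM in those of *pri-1* RNAi and rose by 2.29 ± 0.33 (SE; adjusted p = 0.00272). *hlh-30*, the TFEB of the worm and a known activator of lysosome and autophagy genes, had 322.6, 187.3 and 240.9 CPM against 156.7, 212.9 and 178.5 CPM, which overlapped (-0.43, adjusted p = 0.257). Of the other lysosomal hydrolases 2 of 28 tested were called higher (7.14%) and 6 lower (21.4%, against 9.94% of all genes). The serine carboxypeptidases related to cathepsin A made up most of the lower ones, with 5 of 7 *ctsa* genes, a count made after their values were seen. *ctsa-3.1* fell from 54.3, 67.9 and 37.2 CPM to 7.29, 14.5 and 4.59 CPM (-2.63 ± 0.45, adjusted p = 0.00532) and *ctsa-4.1* fell by 2.29 ± 0.50 (adjusted p = 0.0135). The 2 called higher were the sphingomyelinase genes *asm-3* (2.07 ± 0.36, adjusted p = 0.00548) and *asm-2* (1.83 ± 0.41, adjusted p = 0.0147). *asm-2*, named after its values were seen, had 2.88, 2.80 and 1.08 CPM in the EV replicates and 8.83, 7.31 and 10.4 CPM in those of *pri-1* RNAi. Its call was kept in 4 of the 6 fits that left out a library. Among membrane and delivery genes, 3 of 27 were called higher (11.1%) and 2 lower (7.41%). The higher ones included the cholesterol transporter gene *ncr-2* (2.95 ± 0.30, adjusted p = 0.000784) and *ppk-3*, the PIKfyve lipid kinase (1.85 ± 0.27, adjusted p = 0.00283). Of the 2 called lower, *spin-1*, related to the spinster family of lysosomal transporters, fell by 1.18 ± 0.29 (adjusted p = 0.0198). *asm-3* (0.0913 to 0.318 CPM with EV RNAi) and *ncr-2* (0.11 to 0.253 CPM) passed the filter on low values only through the *pri-1* RNAi libraries, where they were high, so they had to differ and their calls carry no weight.

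These counts also turned on single libraries. Without EV replicates 1, 2 and 3, limma called 8, 10 and 9 of these other genes higher and 1, 9 and 16 lower. Without *pri-1* RNAi replicates 1, 2 and 3 it called 4, 7 and 1 higher and 1, 6 and 0 lower. In the last of these fits 9 were lower at an unadjusted p under 0.05, a share not counted over all genes. *allo-1* was called in every one of these fits. Without *pri-1* RNAi replicate 3 the calls of *bec-1*, *sqst-1*, *ikke-1*, *aak-1*, *ppk-3*, *ctsa-3.1*, *ctsa-4.1* and *spin-1* were lost (adjusted p = 0.0547 to 0.131).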

How the data were processed

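Per the paper's methods, the authors made directional libraries, sequenced 150 bp paired ends, trimmed reads with Trimmomatic 0.36, quantified them with Salmon 1.4.0 (GC bias correction) against the Ensembl transcriptome of WBcel235 and summed transcripts to genes. The deposited table holds CPM values of 19933 genes in 6 libraries; each column sums to 1000000, with no further scaling. Reads estimated across near-identical copies can be split between them. Recovered reads were whole (within 0.1 read) for 92.7% to 94.4% of values. For *cpr-8* they were whole in 3 of 6 libraries.

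limma 3.58.1 (R 4.3.3) was fitted with an intensity trend to log2(CPM + 0.5), 3 EV against 3 *pri-1* RNAi libraries with no covariate, because the table is not counts. Genes needed 0.5 CPM in at least 3 libraries. Recovered reads (more than 10 in at least 3 libraries) went to edgeR 4.0.16 and DESeq2 1.42.0 as alternatives. The scripts were tested on simulated data. Coordinates and exon lengths came from Ensembl release 115 of WBcel235, in which all 72 genes were found. No sequence table was used here, so no sequence is shown and the planned search of promoter letters was not run.

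The members, the lists of other pathway genes and the marker lists were chosen with earlier results of these data known. Genes named in the text are all those called, the most abundant and the most changed of each symbol class (mean of at least 5 CPM), *lgg-1* to *lgg-3*, *lmp-1*, *cpl-1* and *epg-2*, and 6 fixed pathway genes with up to 3 called genes a list. Further members were named after their values were seen, to complete a complex or cluster. Among the other pathway genes, *pink-1*, *pdr-1* and *asm-2* were also named after their values were seen.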

Additional observations from a re-analysis of the deposited data

How the results depend on the processing

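Of 18 called genes, 0 changed direction and *cpr-3* stayed called in all 18 alternatives. Members called higher (7) numbered 4 at a mean of at least 5 CPM, 14 with the library number as block, 4 at a threshold of 0.01 and 1 to 8 with a library left out. Members called lower (11) numbered 2 with median centring, 7 without the trend, 20 with the library number as block, 0 at 0.01 and 0 to 18 with a library left out. In the fit read at 0.01, 21 were lower at an unadjusted p under 0.05, and edgeR and DESeq2 called 9 and 14 at 0.05. Shares over all genes were not counted at a mean of at least 5 CPM, without the trend, with a replicate block, at 0.01, or for genes lower at an unadjusted p. These counts are therefore not read as results about the members. The titles number the replicates 1 to 3 in both groups. Deviations of same-numbered libraries from their group means had correlations of 0.04, -0.323 and 0.458. *pri-1* RNAi and EV libraries did not all correlate best with their own number. These correlations cannot decide whether the libraries were paired, since the deviations within a group of 3 depend on each other. With the title numbers as block 5 members were called higher and 5 lower. The library codes number the *pri-1* RNAi libraries 1, 3 and 4, which gives 2 pairs (0.04 and 0.372) and leaves 2 libraries without a partner. With that number as block, the 2 libraries without a partner do not inform the difference. Its estimates and counts then rest on the 2 pairs alone.

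Other pathway genes called higher (10) numbered 16 with the library number as block and 1 to 10 with a library left out (lowest when *pri-1* RNAi replicate 3 was dropped). Those called lower (8) numbered 13 with trimmed-mean scaling, quantile normalization or the library number as block, 18 with edgeR or DESeq2, and 0 to 16 with a library left out. The shares over all genes in the fits with a library left out are given above, and those with the library number as block were not counted. The proton pump median was -0.355 with median centring, -0.852 with edgeR and -0.824 with DESeq2. The median of both protease families together was 0.303, and was -0.341 at a mean of at least 5 CPM and -0.124 with quantile normalization. The autophagy median ran from -0.069 to 0.34.

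Changes of direction were found in 12 members that were not called and in 3 of 17 other pathway genes named. *asm-2* and the pathway genes not named were not counted, and the cause was not tested. With edgeR and DESeq2 the log2 fold changes were -0.124 and -0.099 (*asp-6*), -0.069 and -0.035 (*atg-3*), -0.087 and -0.059 (*atg-7*), -0.107 and -0.094 (*cpr-8*), -0.133 and -0.101 (*vha-20*), and -0.21 and -0.183 (*unc-51*). With quantile normalization they were -0.06 (*asp-6*), -0.189 (*asp-9*), -0.684 (*cpr-8*) and 0.028 (*epg-9*), and *asp-6* was -0.017 with trimmed-mean scaling. With median centring they were 0.019 (*epg-5*), 0.188 (*epg-9*), 0.099 (*vha-15*) and 0.011 (*unc-32*). With the library number as block they were -0.296 (*asp-6*), 0.536 (*atg-13*), 0.049 (*epg-2*), 0.802 (*epg-5*), -0.054 (*vha-20*) and -0.181 (*unc-51*). With a library left out they ran from -0.315 to 0.485 (*asp-6*), -0.97 to 0.393 (*atg-13*), -0.32 to 0.769 (*atg-16.1*), -0.122 to 0.343 (*cpr-8*), -1.074 to 0.777 (*epg-5*), -0.13 to 0.053 (*epg-9*), -0.264 to 0.071 (*vha-15*), -0.029 to 0.254 (*vha-20*), -0.169 to 0.347 (*unc-51*) and -0.589 to 0.5 (*sepa-1*). Genes below about 1 CPM, such as *asp-17* and *cpr-2*, were close to the pseudocount, which understates their change. The planned search of promoter letters was not run.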
